A study of Mus musculus with 8 samples.

Results

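Layer 4 (L4) excitatory neurons of the mouse primary visual cortex (V1) were described here from single-nucleus RNA sequencing at postnatal day 21. Their nuclei were those that the authors' annotation calls L4, 19022 of 102330 nuclei in all and of 69372 nuclei in the 8 excitatory types. L4 is the main cortical target of visual axons from the thalamus, and its neurons pass that input on to layer 2/3 (L2/3). Transcription in these neurons responds to light-driven activity through immediate early genes, which are induced without new protein synthesis and many of which encode transcription factors, and through later effector genes such as secreted factors and receptor scaffolds.

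The 8 libraries came from 4 groups of 2 mice, 1 male and 1 female in each. All mice carried floxed alleles of the glucocorticoid receptor gene (GRfl/fl), and all received an AAV2/5 vector at birth whose GfaABC1D promoter drives expression in astrocytes. In GR-KO mice the vector carried Cre with EGFP, which deletes the receptor gene in the transduced astrocytes. In GR-Con mice it carried ΔCre, an inactive Cre, with EGFP. Mice of each genotype were normally reared (NR), in a cycle of light and dark, or dark reared (DR), in darkness until collection. The deletion was thus aimed at astrocytes and not at the L4 neurons described here, although some L4 nuclei carried vector RNA, as given below. Libraries are named below by group and sex. Lists of 4 NR values run NR GR-Con male, NR GR-Con female, NR GR-KO male, NR GR-KO female, and lists of DR values keep that order of genotype and sex.

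L4 nuclei numbered 1653 to 2817 per library and held 29027273 to 67197416 unique molecular identifiers (UMIs, counted RNA molecules) in sum. Levels are in CPM, a gene's UMIs divided by all L4 UMIs of the library on the usual scale for depth, and are given as mean ± SD over libraries. Of the L4 barcodes, 43 occurred in 2 or more libraries. The NR GR-KO male library stood apart in its immediate early genes, described below, and the count of calls without it is given beside each comparison that includes it. Of the 74 calls of named genes in those comparisons, 62 passed without it and 12 did not, and 0 changed sign. It also had the largest share of L4 nuclei with a Cre UMI.

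The label was checked against 3 markers of L4. Rorb (chromosome 19, 18930605 to 19111196, minus strand, GRCm38), a nuclear receptor of layer 4 neurons, stood at 1516 ± 329 CPM (n = 8) in L4. In layer 5 intratelencephalic (L5IT) and L2/3 nuclei it stood at 540 and 120 CPM, so L4 was the highest of the excitatory types. Astrocytes held as much Rorb, at 1838 CPM. Scnn1a, a sodium channel subunit, was at 8.12 ± 2.11 CPM in L4 and 2.76 CPM in L5IT nuclei. Rspo1, a secreted activator of Wnt signalling, was at 3.09 ± 1.58 CPM in L4 and at most 0.426 CPM in any other excitatory type, while astrocytes held 7.5 CPM and Vip interneurons 3.81 CPM. The genes with the largest ratio of L4 over the next excitatory type were Whrn at 134 ± 16.2 CPM, Thsd7a at 372 ± 74.3 CPM and Col26a1 at 149 ± 23.5 CPM. These values choose or describe the type, and no test was run on them.

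L4 nuclei made up 29.4%, 30.7%, 23.6% and 33.1% of excitatory nuclei in the NR libraries and 24.9%, 26.6%, 22.8% and 29.0% in the DR libraries. The ranges overlapped. The mean was 29.2% ± 4.05 in NR and 25.8% ± 2.63 in DR (n = 4 each), and the exact two-sided permutation test gave p = 0.2, where the smallest p this design allows is 0.0286. GR-KO and GR-Con libraries differed by -0.794 percentage points (exact permutation p = 0.771). The median number of UMIs per L4 nucleus ran from 15659.5 to 32204.5 over the libraries. Its values overlapped between the rearing conditions (exact permutation p = 0.314) and between the genotypes (exact permutation p = 0.429). Within each genotype and within each rearing condition, however, the groups stood apart. The medians were 17930 and 16397 in NR GR-Con and 23905 and 32204.5 in NR GR-KO. In DR they were 18819 and 20179 in GR-Con and 16454 and 15659.5 in GR-KO. The part of this depth in the calls below was not tested.

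Nr3c1 (chromosome 18, 39410545 to 39519421, minus strand), which encodes the glucocorticoid receptor, was measured at 162, 171, 167 and 168 CPM in the NR libraries and at 159, 148, 169 and 159 CPM in the DR libraries. All 8 L4 values thus lay between 148 and 171 CPM. In NR the log2 difference of GR-KO over GR-Con was 0.01 ± 0.14 (SE). Astrocyte nuclei held 207 to 263 CPM of Nr3c1 in GR-Con and 268 to 284 CPM in GR-KO libraries. The reads come from the 3′ end of the transcript, and whether they lie in the deleted part is not given in the sources used here, so this level checks neither the deletion nor the labels. Nuclei had been sorted as GFP-negative, but the EGFP of this vector is aimed at the cell membrane. The paper reports vector EGFP RNA in astrocytes of these data, and many receptor-dependent genes of its bulk astrocyte data recurred in them.

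Cre RNA of the vector followed the genotype labels. A Cre UMI was found in 15.6% of L4 nuclei of the NR GR-KO male library, 3.76% of the NR GR-KO female, 2.18% of the DR GR-KO male and 2.25% of the DR GR-KO female. In the 4 GR-Con libraries it was found in 0 L4 nuclei, which allows a share of up to 0.106% to 0.130%. Oligodendrocytes, which should lack the vector, had a Cre UMI in at most 0.397% of nuclei, at median depths of 7040 to 15571 UMIs. When each L4 nucleus was thinned to 10000 UMIs, the shares in the same 4 GR-KO libraries were 6.91%, 1.53%, 1.15% and 1.23%. The NR GR-KO male library therefore kept the highest share at equal depth. Reads of the ΔCre feature were counted in GR-KO libraries too, in 1.22% to 12.5% of L4 nuclei, against 0.130% to 1.03% in GR-Con libraries. That is opposite to the labels, so this feature does not tell the vectors apart.

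The first question was how dark rearing changed gene expression in L4 neurons. Over both genotypes, 871 genes were higher and 890 lower in DR than in NR by edgeR's likelihood ratio test with Benjamini-Hochberg adjustment, of 17771 tested, which is 9.91% of them (4.9% higher and 5.01% lower). The genes that rose included an axon guidance receptor, transcription factors, a calcium pump and extracellular matrix proteins. Those that fell included a BMP receptor, kinases and a Wnt secretion factor. The quasi-likelihood F-test, which adds the uncertainty of the spread, called 700 higher and 673 lower (7.73%). Without the NR GR-KO male library the likelihood ratio test called 889 higher and 873 lower (4.94% and 4.85%), and 1360 of these genes were among the 1761 called with it. Over each library left out in turn the count ran from 838 to 2160. The median log2 difference of all genes was -0.01. How many of the called genes were far higher in other cell types is given with the markers below.

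Nrp1 (chromosome 8, 128358604 to 128503363, plus strand), a receptor for semaphorins and VEGF, was at 7.78, 8.74, 14.2 and 10.6 CPM in NR and at 16.7, 26.1, 31.4 and 40.6 CPM in DR. The genes named in this and the next paragraph were chosen among called genes whose DR and NR libraries did not overlap. For Nrp1 the log2 difference was 1.50 ± 0.18 (SE, adjusted p = 1.3e-13). Adamtsl1 (chromosome 4, 85514172 to 86428385, plus strand), a secreted matrix protein, was at 23.8, 32.4, 17.6 and 27.2 CPM in NR and at 59.6, 94.0, 60.7 and 62.6 CPM in DR, a log2 difference of 1.49 ± 0.19 (adjusted p = 4.9e-12). Npas3, a transcription factor of the bHLH-PAS family, ranged from 11.1 to 25.1 CPM in NR and from 25.7 to 79.7 CPM in DR (log2 difference 1.42 ± 0.37, adjusted p = 0.004). Its quasi-likelihood adjusted p was 0.052, and its call was lost when 1 library was left out (largest adjusted p = 0.054). Among the other named genes that rose were Glis3, a zinc finger transcription factor, at 9.34 ± 2.96 CPM in NR and 23.9 ± 8.20 CPM in DR. Atp2b4, a plasma membrane calcium pump, was at 14.8 ± 5.18 CPM in NR and 37.4 ± 8.83 CPM in DR. Col5a1, a collagen chain, had NR values within 11.4 to 14.0 CPM and DR values within 20.4 to 32.7 CPM. Sh3pxd2b, Thsd4, St6galnac5 and Stum completed the named set, with log2 differences of 1.12 to 1.22.

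Bmpr1b (chromosome 3, 141837136 to 142169425, minus strand), a receptor for bone morphogenetic proteins, was at 30.6, 26.8, 12.7 and 25.9 CPM in NR and at 6.53, 8.70, 8.61 and 12.3 CPM in DR. The lowest NR library, NR GR-KO male, lay just above the highest DR library, and the log2 difference was -1.36 ± 0.29 (adjusted p = 0.00026). Hunk (chromosome 16, 90386013 to 90499553, plus strand), a protein kinase, was at 152, 112, 85.4 and 92.8 CPM in NR and at 75.0, 46.3, 21.3 and 42.3 CPM in DR (log2 difference -1.26 ± 0.24, adjusted p = 2.7e-05). Siae (chromosome 9, 37555698 to 37649655, plus strand), a sialic acid acetylesterase, was at 76.7, 70.1, 68.9 and 71.2 CPM in NR and at 46.4, 46.6, 40.6 and 39.3 CPM in DR. Its log2 difference was -0.70 ± 0.08 (adjusted p = 4.0e-14). Epb41l5, a FERM domain protein of cell junctions, was at 22.7 ± 7.51 CPM in NR and 9.59 ± 0.813 CPM in DR. Lgi2 and Prcp fell by 0.97 and 0.95 on the log2 scale. Barx2, a homeobox transcription factor among the genes that mark L4 here, was at 55.4 ± 3.27 CPM in NR and 32.5 ± 11.1 CPM in DR. Diras2, Wls, which carries Wnt proteins to the cell surface, and Mfap3l had log2 differences of -0.78, -0.78 and -0.69.

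**Figure D1:**
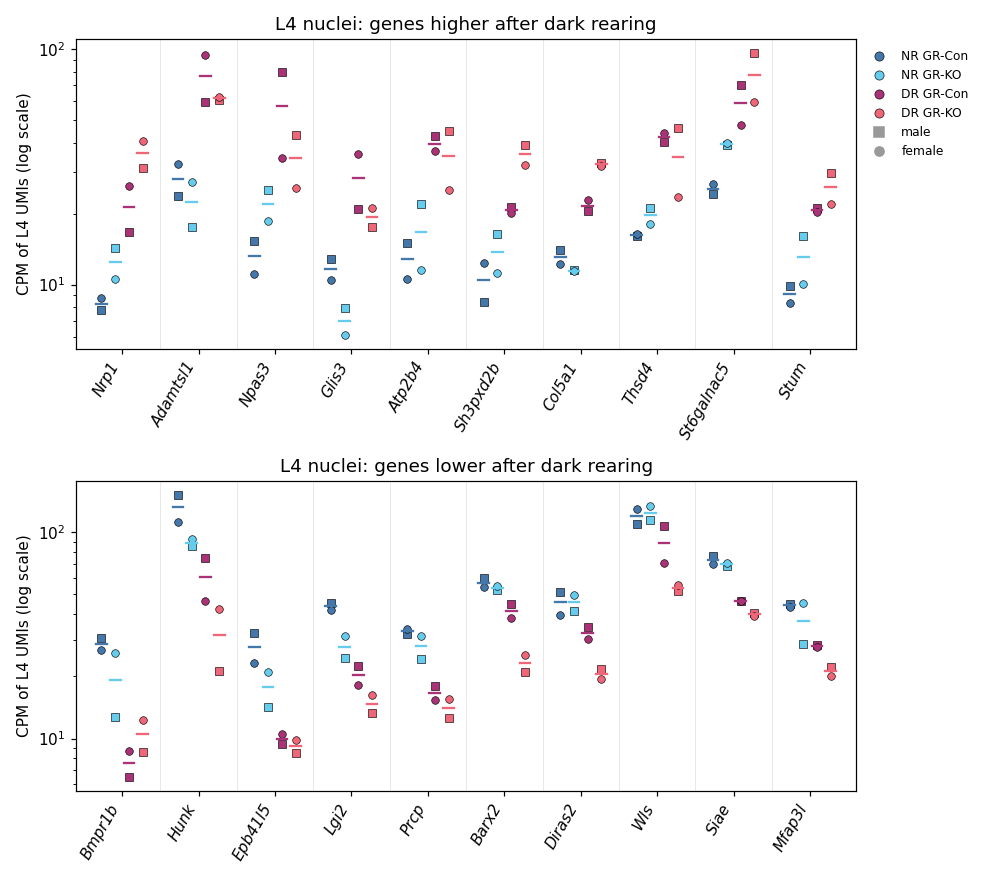
Level of the 20 named genes in L4 nuclei of each library, in CPM on a log axis, with squares for males, circles for females and short lines for the mean of each group of 2. The DR points of each gene lie all above (upper panel) or all below (lower panel) its NR points, which the naming rule required.

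Of the 3 L4 markers, 1 passed the test of DR against NR, as did 9.91% of all genes. Rspo1 (chromosome 4, 124986430 to 125009099, plus strand) was at 4.85, 4.63, 2.84 and 5.13 CPM in NR and at 1.55, 1.05, 2.10 and 2.59 CPM in DR. Its log2 difference was -1.27 ± 0.30 (adjusted p = 0.00086). Rorb was at 1740 ± 321 CPM in NR and 1300 ± 148 CPM in DR, which did not pass (log2 difference -0.37 ± 0.15, adjusted p = 0.08). For Scnn1a (chromosome 6, 125320659 to 125344943, plus strand) the log2 difference was -0.02 ± 0.27. The summed level of 5 L2/3 markers in L4 nuclei was 260 to 280 CPM in NR and 276 to 407 CPM in DR. The ranges overlapped through the DR GR-KO female library, while within GR-Con they stood apart (260 to 280 and 337 to 407 CPM), and none of them was at 0 in any library. Of the 5, Cdh13 was called higher, Calb1 was called lower, and Otof, Trpc6 and Chrm2 did not pass. Among all genes 4.9% were called higher and 5.01% lower. Without Cdh13, left out after its values were seen, the other 4 summed to 208 to 257 CPM in NR and 223 to 254 CPM in DR. Of the 871 genes higher in DR, 158 (18.1%) were at least 4 times higher in an inhibitory type than in L4. Among the genes tested the share was 11.5%. For L2/3 the count was 36 (4.13%), against 1.42%. Among the 890 lower genes the counts were 109 (12.2%) and 11 (1.24%). Of the 10 inhibitory neuron markers, 1 was called higher and 4 lower. The part of L2/3 or inhibitory nuclei in the differences was not tested.

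Receptors for glutamate were counted from a fixed list. Of its 23 genes tested, 3 rose in DR and 0 fell, against 4.9% of all genes called higher, and the list's median log2 difference was 0.11. Gria1, an AMPA receptor subunit, was at 327, 374, 347 and 358 CPM in NR and at 504, 539, 558 and 447 CPM in DR (log2 difference 0.58 ± 0.10, adjusted p = 2.1e-06). Its groups did not overlap, and the quasi-likelihood test also called it (adjusted p = 0.01). Grin2d, an NMDA receptor subunit, was at 3.60 ± 0.303 CPM in NR and 5.28 ± 0.823 CPM in DR. Grik4, a kainate receptor subunit, was at 29.0, 20.7, 11.4 and 12.8 CPM in NR and at 22.7, 72.3, 43.9 and 37.4 CPM in DR. The DR GR-Con male value lay inside the NR range, and the log2 difference was 1.37 ± 0.33 (adjusted p = 0.0014).

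Ion channels showed calls in both directions, where 4.9% of all genes were called higher and 5.01% lower. Of 51 potassium channel genes 5 rose and 4 fell, with a median of 0.07. Among 30 sodium, calcium and HCN channel genes 5 rose and 1 fell, with a median of 0.09. Cacna1h, a T-type calcium channel that opens at low voltage, was at 1.30 ± 0.462 CPM in NR and 3.75 ± 1.17 CPM in DR (log2 difference 1.59 ± 0.31, adjusted p = 2.6e-05). Cacng2, which brings AMPA receptors to the membrane, was at 117 ± 12.8 and 174 ± 38.7 CPM. Scn1a, a voltage-gated sodium channel, was the member that fell, from 489 ± 83.1 CPM to 326 ± 31.1 CPM (log2 difference -0.54 ± 0.12, adjusted p = 0.00039). Of 29 neuromodulator receptor genes tested, the adrenergic receptors Adra1b and Adra1d rose and Sstr1, a somatostatin receptor, fell. Adra1d was at 5.90 ± 1.37 CPM in NR and 8.23 ± 0.833 CPM in DR. The other two were lower: Adra1b was at 0.923 ± 0.278 CPM in NR and 2.20 ± 0.727 CPM in DR, and Sstr1 at 0.673 ± 0.158 and 0.296 ± 0.0545 CPM.

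Genes of wiring and adhesion were also called in both directions, beside the same 4.9% and 5.01% of all genes. Of 45 axon guidance and growth genes, 6 rose, which were Slit1, Slit3, Epha4, Gap43, Plxnd1 and Nrp1, and 4 fell, which were Robo3, Epha8, Stmn2 and Nrp2. The list's median was 0.05. Slit1, a secreted ligand of Robo receptors, was at 27.9 ± 0.923 CPM in NR and 47.1 ± 13.8 CPM in DR (log2 difference 0.76 ± 0.16, adjusted p = 0.00013). Gap43, a growth cone protein, was at 40.2, 35.6, 86.6 and 43.9 CPM in NR and at 82.3, 62.4, 78.7 and 82.7 CPM in DR. The NR GR-KO male library exceeded all DR libraries for this gene, and its call was lost when 1 library was left out (largest adjusted p = 0.16). Of 24 cadherins and protocadherins, 5 rose and 3 fell. Among 36 synaptic organizers 1 rose and 4 fell: Flrt2, Slitrk1, Slitrk2 and Slitrk4, which are leucine-rich repeat proteins of the synapse. Flrt2 was at 481 ± 43.8 CPM in NR and 353 ± 42.7 CPM in DR, and Slitrk1 at 48.7 ± 2.97 and 37.0 ± 1.20 CPM. All 4 were also called by the quasi-likelihood test.

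The 15 glucocorticoid receptors and targets tested bear on the receptor that the study removed from astrocytes. Of these, 2 rose and 1 fell in DR, against 4.9% of all genes called higher and 5.01% lower. Hsd11b1 (chromosome 1, 193221634 to 193264075, minus strand), the enzyme that turns inactive glucocorticoid into its active form inside a cell, was at 7.51, 10.7, 14.6 and 13.0 CPM in NR and at 16.9, 20.8, 27.6 and 22.6 CPM in DR. All DR values lay above all NR values (log2 difference 0.99 ± 0.14, adjusted p = 1.5e-09, quasi-likelihood adjusted p = 0.0097). Sgk1, a kinase induced by glucocorticoids, was at 106 ± 6.99 CPM in NR and 137 ± 17.4 CPM in DR (log2 difference 0.41 ± 0.11, adjusted p = 0.0047). Tsc22d3, another induced target, went the other way, from 2.18 ± 0.350 to 1.48 ± 0.162 CPM (adjusted p = 0.041). The calls of Sgk1 and Tsc22d3 were each lost when 1 library was left out (largest adjusted p = 0.06 and 0.17). The remaining 12 genes of the list did not pass.

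Of 17 circadian clock genes, Clock rose and the clock outputs Ciart and Dbp fell, against 4.9% of all genes called higher and 5.01% lower. Mice of both rearing conditions had been collected under red light in the same hours, which followed lights-off in the reversed light cycle of the NR mice. The clock phase of the DR mice, kept in constant darkness, is not given in the sources used here. Ciart (chromosome 3, 95878503 to 95882251, minus strand), a repressor within the clock, was at 10.7, 14.6, 13.5 and 13.7 CPM in NR and at 6.36, 6.27, 6.82 and 7.11 CPM in DR. The 4 DR libraries lay within 1 CPM of each other and below every NR library (log2 difference -0.95 ± 0.13, adjusted p = 1.1e-10). Dbp (chromosome 7, 45705088 to 45710203, plus strand), a transcription factor driven by the clock, was at 12.6, 17.8, 14.4 and 20.6 CPM in NR and at 8.83, 8.12, 11.2 and 9.92 CPM in DR (log2 difference -0.75 ± 0.16, adjusted p = 0.00018). Clock was at 123 ± 6.60 CPM in NR and 142 ± 8.02 CPM in DR, and its call was lost when 1 library was left out (largest adjusted p = 0.15). CLOCK binds the E-box CACGTG, so the 250 bases before the RefSeq start of Ciart are shown (build GRCm38.p6), with each E-box in capitals.
Ciart, chr3:95882229-95882478, minus strand: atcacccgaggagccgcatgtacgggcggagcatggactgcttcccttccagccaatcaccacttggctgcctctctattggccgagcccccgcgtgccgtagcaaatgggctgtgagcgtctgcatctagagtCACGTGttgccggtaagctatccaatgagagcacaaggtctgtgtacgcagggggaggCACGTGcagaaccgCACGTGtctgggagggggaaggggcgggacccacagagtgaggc
The motif, which reads the same on both strands, occurred 3 times in this window of Ciart and 0 times in the matching window of Dbp. It was present in 6.02% of the 32851 promoter windows of this length in the RefSeq table. A match is a description of the sequence and not a measured binding site.

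Genes regulated by neuronal activity were the next group, because darkness removes visual drive. Of 26 effector genes tested, 0 rose and 4 fell in DR, which were Scg2, Inhba, Gadd45b and Pim1, with a list median of -0.19, against 5.01% of all genes called lower. The calls of Scg2, Gadd45b and Pim1 were each lost when 1 library was left out (for Scg2, largest adjusted p = 0.12). Inhba, a subunit of activin, was at 19.6, 16.2, 16.3 and 17.0 CPM in NR and at 13.9, 12, 13.0 and 10.8 CPM in DR (log2 difference -0.44 ± 0.11, adjusted p = 0.0023). Bdnf, the neurotrophin, was at 23.4, 16.3, 31.9 and 14.0 CPM in NR and at 18.1, 21.2, 17.4 and 20.9 CPM in DR, so the DR values lay inside the NR range. Of 16 immediate early transcription factors 0 were called, with a median of -0.73. Without the NR GR-KO male library 3 of the 16 were called higher in DR, against 4.94% of all genes, and the median was 0.11. Within GR-KO, 10 of 17 were then called higher, against 5.09% of all genes, with the NR GR-KO female as the lone NR library and its spread assumed to be that of the others.

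The same effector genes behaved differently in L2/3, and the difference between the layers was tested within libraries. Of 19086 genes, 839 had a more positive rearing effect in L4 than in L2/3 and 781 a more negative one (8.49% in all, 4.4% and 4.09% by direction). Of the 781, 256 (32.8%) were at least 4 times higher in an inhibitory type than in L4, against 13.7% of the genes tested. For L2/3 the count was 64 (8.19%), against 2.31%. Among the 839 the counts were 109 (13%) and 24 (2.86%). The part of these types in the calls was not tested. Among the 26 effector genes 16 were called more positive in L4 and 1, Nptx1, more negative, and the list median was 0.52 against 0.01 over all genes. The quasi-likelihood test called 11 and 0, against 2.68% and 2.25% of all genes (4.93% in all). Without the NR GR-KO male library the likelihood ratio test called 18 and 1, where 1093 of all genes (5.76%) were more positive and 972 more negative (10.9% in all).

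Nptx2 (chromosome 5, 144545902 to 144557478, plus strand), a secreted pentraxin that gathers AMPA receptors, was at 2.45, 1.71, 4.42 and 2.05 CPM in NR and at 2.36, 3.34, 3.0 and 4.0 CPM in DR in L4. In L2/3 it was at 7.20, 4.63, 7.87 and 4.50 CPM in NR and at 1.45, 2.04, 1.42 and 1.94 CPM in DR. The L2/3 groups stood apart while the L4 groups overlapped, and the difference of the log2 effects was 2.16 ± 0.15 (adjusted p = 3.8e-45, quasi-likelihood adjusted p = 0.00024). Ptgs2, the inducible cyclooxygenase, was at 2.36 ± 0.858 CPM in NR and 1.74 ± 0.387 CPM in DR in L4, and at 5.25 ± 0.961 and 1.48 ± 0.617 CPM in L2/3 (difference 1.52 ± 0.21, adjusted p = 7.7e-11). Bdnf (chromosome 2, 109674700 to 109727007, plus strand) was at 21.4 ± 8.06 and 19.4 ± 1.93 CPM in L4 and at 23.9 ± 7.02 and 12 ± 3.20 CPM in L2/3 (difference 0.96 ± 0.19, adjusted p = 4.1e-05). Scg2, a secretory granule protein, was lower in DR in both layers, from 13.5 ± 3.98 to 7.10 ± 2.79 CPM in L4 and from 11.3 ± 2.03 to 3.54 ± 1.26 CPM in L2/3. Its effect in L2/3 was the larger (difference 0.82 ± 0.18, adjusted p = 0.00041). Rgs4, a brake on G protein signalling, and Nrn1, a membrane-anchored growth factor, differed by 0.73 ± 0.15 and 0.54 ± 0.11. For Pcsk1, a prohormone protease, and Homer1, a synaptic scaffold, the differences were 0.74 ± 0.18 and 0.69 ± 0.17.

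**Figure D2:**
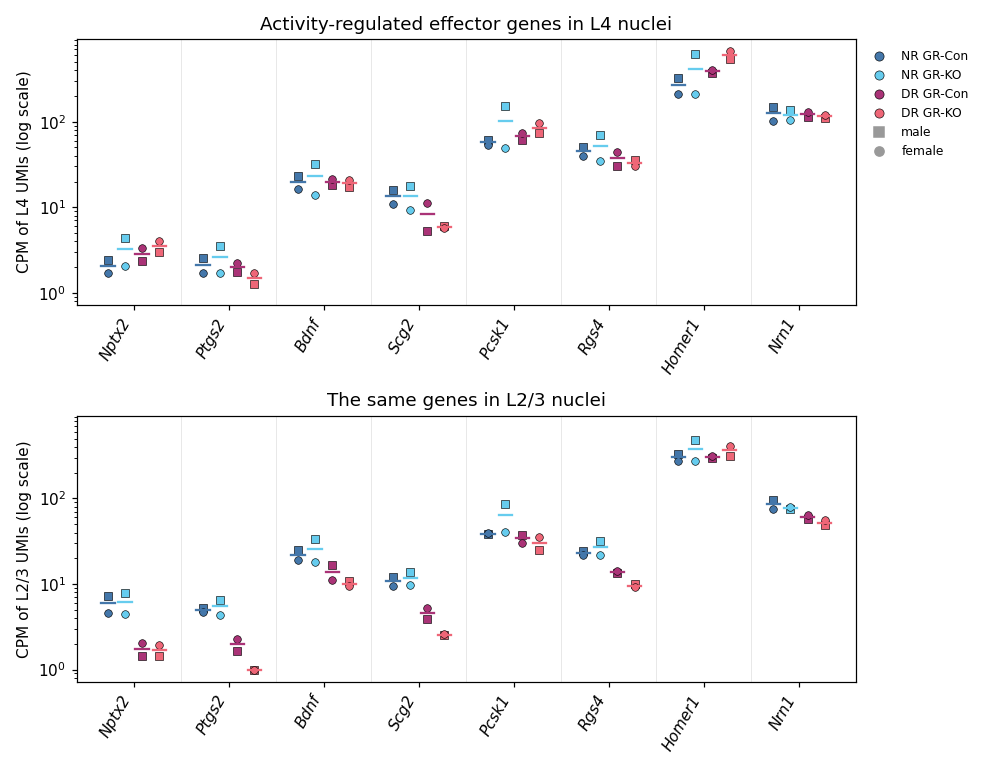
Levels of 8 activity-regulated effector genes by library in L4 nuclei (upper panel) and L2/3 nuclei (lower panel), in CPM of each type's UMIs on a shared log axis, with squares for males, circles for females and short lines for the mean of each group. In L2/3 the DR points of Nptx2, Ptgs2, Bdnf, Scg2, Pcsk1, Rgs4 and Nrn1 lie below all NR points, while in L4 the DR and NR points of these genes overlap.

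Outside this list, the genes named for the largest layer difference were Trpc6, Mir670hg, Col26a1, Sema3a and Fstl5 on the L4 side. Col26a1, one of the leading L4 genes, was at 140 ± 16.9 CPM in NR and 158 ± 28.2 CPM in DR in L4, and at 17.7 ± 4.14 and 7.55 ± 2.12 CPM in L2/3 (difference 1.45 ± 0.11, adjusted p = 1.8e-34). Sema3a, a secreted guidance cue, was at 88.4 ± 26.9 and 115 ± 9.39 CPM in L4 and at 135 ± 11.8 and 74.8 ± 31.2 CPM in L2/3. Fstl5 rose in L4 itself, from 38.0 ± 5.19 to 67.9 ± 10.7 CPM. On the other side were Rmst, St6galnac5, Sgcd, Maml2 and Ano4. Rmst, a long noncoding RNA, was at 18.7, 18.4, 53.7 and 19.7 CPM in NR and at 59.6, 22.2, 23.1 and 7.86 CPM in DR in L4. In L2/3 it was at 1.33, 0.922, 35.5 and 2.67 CPM in NR and at 36.0, 18.5, 72.4 and 22.0 CPM in DR, and the difference of the effects was -3.38 ± 0.40 (adjusted p = 3.1e-14). The NR GR-KO male library was the highest of the NR libraries in both layers. Without that library the difference was -3.86. The calls of St6galnac5, Sgcd and Ano4 were each lost when 1 library was left out (largest adjusted p = 0.25, 0.088 and 0.18).

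Against L5IT, 234 genes had a more positive and 135 a more negative rearing effect in L4, of 17195 tested (2.15%). By quasi-likelihood the counts were 34 and 15 (0.285%), and without the NR GR-KO male library those of the likelihood ratio test were 513 and 442 (5.61%). Hsd11b1 was the named gene with the largest positive difference. In L5IT it was at 39.9, 36.6, 22.8 and 39.9 CPM in NR and at 13.7, 16.5, 19.6 and 35.2 CPM in DR, where the groups overlapped, while in L4 it rose as given above. The difference of the log2 effects was 1.77 ± 0.34 (adjusted p = 7.8e-05), with a quasi-likelihood adjusted p of 0.06. Col12a1, a collagen chain, was at 3.39 ± 0.568 CPM in NR and 7.19 ± 0.697 CPM in DR in L4, against 58.5 ± 10.3 and 42.9 ± 13.9 CPM in L5IT (difference 1.61 ± 0.28, adjusted p = 7.1e-06). Grik1, Adarb2 and Pth2r differed by 1.62, 1.29 and 1.22. On the negative side, Ntng1, a netrin-related adhesion protein, differed by -1.87, Nfia by -1.58, Prkd1 by -1.10, Mtss1 by -1.03 and Dscaml1 by -1.0. The calls of Nfia and Dscaml1 were each lost when 1 library was left out (largest adjusted p = 0.082 and 0.16).

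Immediate early genes set the NR GR-KO male library apart. Fos (chromosome 12, 85473890 to 85477273, plus strand), a subunit of the AP-1 transcription factor, was at 3.55, 1.73, 31.2 and 1.34 CPM in NR and at 1.33, 3.42, 3.48 and 3.25 CPM in DR. The other 7 libraries thus lay at or below 3.55 CPM. Junb, another AP-1 subunit, was at 127 CPM in it and at 9.02 to 28.4 CPM in the other 7 libraries. Arc, a synaptic protein encoded by an immediate early gene, was at 64.2 CPM in it and at 1.95 to 9.56 CPM in the others. For Npas4, a neuron-specific transcription factor, the values were 60 CPM and 5.94 to 16.1 CPM, and for Egr1 they were 78.7 CPM and 12.9 to 25.8 CPM.

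The signal was spread over many nuclei of that library. After thinning to 10000 UMIs, a Fos UMI was found in 23.6% of its L4 nuclei, against 1.03% to 3.43% in the other libraries. Without thinning, the shares were 39.7% and 2.46% to 6.50%. An Arc UMI was found in 42.4% of its thinned nuclei and in 1.93% to 8.47% elsewhere. Within it, nuclei were also split by a Cre UMI before thinning, and the shares with a Fos UMI after thinning were alike. They were 23.1% of the 312 nuclei with a Cre UMI (95% Wilson interval 18.7% to 28.1%) and 23.7% of the 1684 without one (21.7% to 25.8%). Fos was at 31.5 CPM in the 1460 nuclei of the library without any vector UMI. Its 361 Cre UMIs lay in 314 L4 nuclei, so a nucleus without a Cre UMI may still have held undetected vector RNA. The intervals cover counting error in 1 mouse only. The split therefore cannot decide the part of the vector in the Fos level, which was not tested. The same library had the highest Fos, Junb, Egr1 and Arc level in all 13 neuron types annotated, and the highest Npas4 level in 11 of them. Because the group holds 2 mice and the other, the NR GR-KO female, had 1.34 CPM of Fos, genotype and the single mouse cannot be told apart. In NR, 0 of 17 immediate early genes passed the test between genotypes, where 0.266% of all genes did, with a median of 1.44 that became -0.45 without this library.

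**Figure D3:**
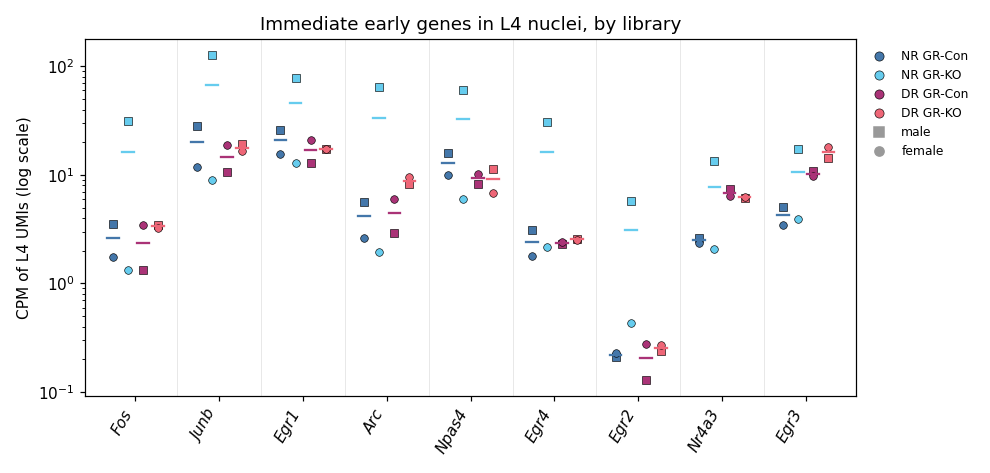
Levels of 9 immediate early genes in L4 nuclei of each library, in CPM on a log axis, with squares for males, circles for females and short lines for the mean of each group of 2. The NR GR-KO male square lies above the other 7 points for each gene except Egr3, where the DR GR-KO female circle (18.1 CPM) is the highest.

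The 250 bases before the RefSeq starts of 3 immediate early genes are shown (build GRCm38.p6), together with Scg2, the effector that fell in both layers. These genes were picked by hand. Others that were high in the same library, such as Egr1, Egr2, Egr4 and Fosb, were not searched. The matches below therefore say nothing of the group, and a role of CREB was not tested. Capitals mark TGACG or its reverse complement, the core of the site bound by CREB, a factor that activity switches on.
Fos, chr12:85473640-85473889, plus strand: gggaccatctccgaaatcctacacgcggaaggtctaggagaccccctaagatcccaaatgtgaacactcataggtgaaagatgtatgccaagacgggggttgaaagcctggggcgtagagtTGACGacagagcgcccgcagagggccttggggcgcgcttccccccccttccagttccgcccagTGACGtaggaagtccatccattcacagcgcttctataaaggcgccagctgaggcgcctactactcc
Junb, chr8:84978749-84978998, minus strand: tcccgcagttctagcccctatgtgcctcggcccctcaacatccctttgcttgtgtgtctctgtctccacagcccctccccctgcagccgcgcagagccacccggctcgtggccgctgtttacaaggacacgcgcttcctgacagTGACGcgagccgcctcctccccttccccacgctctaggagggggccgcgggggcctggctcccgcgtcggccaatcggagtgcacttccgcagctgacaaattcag
Npas4, chr19:4989972-4990221, minus strand: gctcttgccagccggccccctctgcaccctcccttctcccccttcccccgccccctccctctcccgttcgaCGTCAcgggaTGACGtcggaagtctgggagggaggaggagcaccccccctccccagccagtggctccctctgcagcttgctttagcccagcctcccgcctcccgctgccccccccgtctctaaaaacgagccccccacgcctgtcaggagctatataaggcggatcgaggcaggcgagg
Scg2, chr1:79440027-79440276, minus strand: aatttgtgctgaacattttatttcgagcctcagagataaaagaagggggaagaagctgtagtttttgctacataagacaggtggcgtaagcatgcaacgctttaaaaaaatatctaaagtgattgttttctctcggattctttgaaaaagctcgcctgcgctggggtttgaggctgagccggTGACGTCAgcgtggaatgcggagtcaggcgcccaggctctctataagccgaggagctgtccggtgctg
The core occurred 2 times before Fos, 1 time before Junb, 2 times before Npas4 and 2 times before Scg2, where both cores overlap in the full palindrome TGACGTCA. Of all 32851 windows of this length, 17.8% held the core and 1.55% the full palindrome. Arc was not in the promoter table.

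Egr3 and Nr4a3 passed the test of rearing within GR-Con. Nr4a3, a nuclear receptor induced by activity, was at 2.62, 2.38, 13.5 and 2.07 CPM in NR and at 7.41, 6.33, 6.17 and 6.25 CPM in DR. Outside the NR GR-KO male library, DR values were above NR values, and in GR-Con the log2 difference was 1.47 ± 0.21 (adjusted p = 2.0e-09, quasi-likelihood adjusted p = 0.088). Egr3 was at 5.08, 3.45, 17.4 and 3.93 CPM in NR and at 10.8, 9.67, 14.3 and 18.1 CPM in DR, with a difference in GR-Con of 1.27 ± 0.23 (adjusted p = 1.4e-05, quasi-likelihood adjusted p = 0.12). Both have 2 libraries per group in GR-Con.

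Within each genotype the comparison of DR with NR rests on 2 against 2 libraries. In GR-Con 411 genes were higher and 196 lower of 17624 (3.44%). By quasi-likelihood the counts were 5 and 3 (0.0454%). Markers of other cells moved with this comparison. Their summed level in L4 nuclei was 32.2 to 42.0 CPM in NR GR-Con and 51.9 to 70.3 CPM in DR GR-Con for the 10 inhibitory neuron markers. For 6 astrocyte markers it was 58.0 to 74.0 and 110 to 209 CPM, of which the 5 markers other than Gpc5 made up 22.3 to 23.4 and 24.1 to 30.3 CPM. The 5 L2/3 markers stood apart as given above, as did 3 L5IT markers (306 to 390 and 411 to 544 CPM). The 3 L4 markers (1784 to 2036 and 1357 to 1412 CPM), 4 microglia markers (19.3 to 19.4 and 16.2 to 18.4 CPM) and 3 endothelial markers (1.45 to 1.47 and 0.988 to 1.12 CPM) were lower in DR. The sums of the L6CT (corticothalamic), oligodendrocyte and oligodendrocyte precursor (OPC) markers overlapped. Of the 411 genes that were higher, 167 (40.6%) were at least 4 times higher in an inhibitory type than in L4, against 11.3% of the genes tested, and 58 (14.1%) were so in L2/3, against 1.38%. The part of these types in the calls was not tested. Bmpr1b and Osbpl3 were named among those that fell. Osbpl3 (chromosome 6, 50293330 to 50456201, minus strand), an oxysterol-binding protein, was at 558 and 595 CPM in NR GR-Con and at 171 and 212 CPM in DR GR-Con (log2 difference -1.58 ± 0.17, adjusted p = 2.3e-16, quasi-likelihood adjusted p = 0.04). In GR-KO it was at 513 and 362 CPM in NR and at 388 and 259 CPM in DR, which overlap. The named genes that rose in GR-Con, Syt17, Lypd1 and Cdh13, were each highest in the DR GR-Con male library. Cdh13, a cadherin without a cytoplasmic tail, was at 23.4 and 26.3 CPM in NR GR-Con and at 184 and 85.8 CPM in DR GR-Con (log2 difference 2.46 ± 0.38, adjusted p = 4.4e-08, quasi-likelihood adjusted p = 0.1).

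In GR-KO 468 genes were higher and 487 lower of 17437 (5.48%). By quasi-likelihood the counts were 146 and 72 (1.25%). The count of the likelihood ratio test was far lower when either DR GR-KO library was left out. When the NR GR-KO male library was left out, the likelihood ratio test called 906 higher and 677 lower (8.89%), and 783 of these genes were among the 955 called with it. The summed level of the 10 inhibitory neuron markers was 71.3 to 85.3 CPM in NR GR-KO and 44.2 to 53.3 CPM in DR GR-KO. Lower in DR too were 2 L6CT markers (19.5 to 20.7 and 14.0 to 15.2 CPM), 4 microglia markers (19.5 to 22.3 and 15.7 to 18.4 CPM) and 3 OPC markers (5.74 to 7.49 and 5.52 to 5.65 CPM), while the sums of the other marker lists overlapped. The part of these types in the calls was not tested. Grik4 was at 11.4 and 12.8 CPM in NR GR-KO and at 43.9 and 37.4 CPM in DR GR-KO (log2 difference 1.81 ± 0.16, adjusted p = 1.3e-25). Htr2a, a serotonin receptor, was at 36.1 and 37.3 CPM in NR GR-KO and at 13.5 and 14.2 CPM in DR GR-KO (log2 difference -1.34 ± 0.15, adjusted p = 3.5e-16). In GR-Con the same gene was at 34.7 and 26.9 CPM in NR and at 42.8 and 21.4 CPM in DR. Its interaction of genotype and rearing, 1.43 ± 0.42, did not pass (adjusted p = 0.15). Tshz2 and Wls were named here too, with log2 differences of 1.69 and -1.15.

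The second question was whether astrocyte deletion of the receptor changed L4 neurons. In NR 42 genes were higher and 5 lower in GR-KO of 17661 (0.266% in all, 0.238% higher and 0.0283% lower) by the likelihood ratio test. The quasi-likelihood test called 0, with 865 genes at an unadjusted p under 0.05, and DESeq2's Wald test called 34. Without the NR GR-KO male library the likelihood ratio test called 31 higher and 6 lower (0.203%), and 25 of these were among the 47 called with it. Without the NR GR-KO female it called 482, without the NR GR-Con male 12, and with sex as a term 249. The number of calls therefore depends on the test and on single libraries. Of the 47 calls, DESeq2 shared 27 and the quasi-likelihood test 0. The calls below are those of the likelihood ratio test.

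Robo1 (chromosome 16, 72308306 to 73046095, plus strand), the receptor of Slit proteins that steers axons, was at 79.4 and 62.1 CPM in NR GR-Con and at 243 and 170 CPM in NR GR-KO (log2 difference 1.54 ± 0.24, adjusted p = 4.4e-07, quasi-likelihood adjusted p = 0.9). In DR it was at 403 and 136 CPM in GR-Con and at 228 and 101 CPM in GR-KO, and those values overlap. Gpc5 (chromosome 14, 115092215 to 116525179, plus strand), a heparan sulfate proteoglycan abundant in astrocytes, was at 50.7 and 35.7 CPM in NR GR-Con and at 174 and 99.9 CPM in NR GR-KO (log2 difference 1.67 ± 0.32, adjusted p = 0.00033). Its DR values of 185, 79.3, 104 and 41.5 CPM gave no such order. Erbb4 (chromosome 1, 68032186 to 69108059, minus strand), the neuregulin receptor of inhibitory neurons, was at 11.4 and 8.24 CPM in NR GR-Con and at 26.3 and 35.7 CPM in NR GR-KO (log2 difference 1.66 ± 0.24, adjusted p = 9.8e-08). Gabrg3, a GABA-A receptor subunit, was at 87.1 and 65.8 CPM in NR GR-Con and at 259 and 158 CPM in NR GR-KO. Gpc6, Sgcd, Spon1, Mgat4c, Gbe1 and Greb1l were the other named genes that were higher, with adjusted p of 0.0056 to 0.037. Grik4 (chromosome 9, 42518135 to 42944493, minus strand) was the named gene that was lower, by the values given above (log2 difference -1.04 ± 0.21, adjusted p = 0.0015). Of these 11 genes, the calls of Robo1 and Erbb4 alone passed with each library left out.

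**Figure D4:**
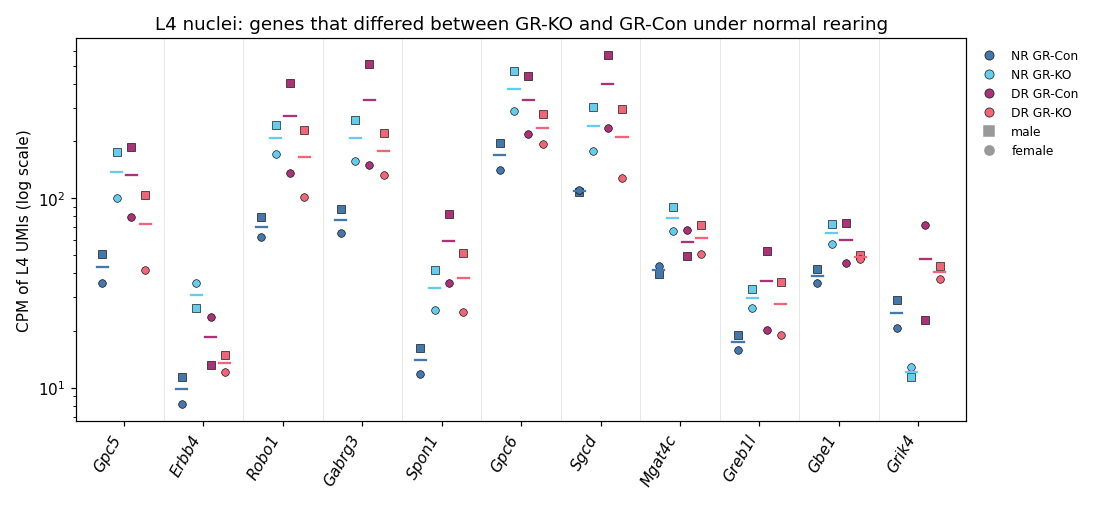
Level of the 11 genes named for the NR genotype comparison in L4 nuclei of each library, in CPM on a log axis, with squares for males, circles for females and short lines for the mean of each group of 2. The NR GR-KO points lie above the NR GR-Con points for the first 10 genes, where the naming rule required no overlap. The DR GR-Con male square is the highest of all for Robo1, Gpc5, Gabrg3, Spon1, Sgcd, Greb1l and Gbe1.

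Markers of other cells moved with this comparison. The summed level of 10 inhibitory neuron markers in L4 nuclei was 32.2 to 42.0 CPM in NR GR-Con and 71.3 to 85.3 CPM in NR GR-KO, and none of the markers was at 0. Of these 10, Erbb4, Kcnmb2 and Adarb2 were called higher, against 0.238% of all genes, and all 10 had a positive difference (median 0.76). The other 7 summed to 14.9 to 19.7 CPM in NR GR-Con and 26.9 to 27.3 CPM in NR GR-KO. The summed level of 6 astrocyte markers was 58.0 to 74.0 CPM in NR GR-Con and 127 to 202 CPM in NR GR-KO. Most of that sum was Gpc5, the 1 marker called, and the other 5 summed to 22.3 to 23.4 CPM in NR GR-Con and 26.7 to 27.4 CPM in NR GR-KO. Gpc5 is not particular to astrocytes here, since it stood at 417 CPM in L2/3 nuclei and 96.2 CPM in L4. For 6 oligodendrocyte markers the sums were 58.0 to 63.9 CPM and 77.4 to 109 CPM. They also stood apart for 3 L5IT markers (306 to 390 and 395 to 542 CPM), 2 L6CT markers (11.5 to 17.8 and 19.5 to 20.7 CPM), 3 OPC markers (4.93 to 5.04 and 5.74 to 7.49 CPM) and, narrowly, 4 microglia markers (19.3 to 19.4 and 19.5 to 22.3 CPM), and overlapped for the L4, L2/3 and endothelial markers. Of the 42 genes that were higher, 25 (59.5%) had a level at least 4 times higher in an inhibitory type than in L4, against 11.4% of the genes tested. Of the same 42, 10 (23.8%) were at least 4 times higher in L2/3 than in L4, against 1.35%. The other excitatory types were not counted in this way. Robo1 was at 2138 CPM in layer 5 pyramidal tract nuclei and 2192 CPM in Vip interneurons, against 178 CPM in L4. Gabrg3 was at 2495 CPM in layer 5 near-projecting nuclei (L4 198 CPM) and Sgcd at 1156 CPM in layer 6b nuclei (L4 240 CPM). For Erbb4 the highest other excitatory level was 29.1 CPM, against 18.1 CPM in L4. The part of RNA or nuclei of these types in the calls was not tested.

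In DR 135 genes were higher and 67 lower in GR-KO of 17312 (1.17%), while the quasi-likelihood test called 0, with 1816 at an unadjusted p under 0.05, and DESeq2 called 279. The likelihood ratio count fell when either DR GR-KO library was left out and rose when either DR GR-Con library was left out. The 6 oligodendrocyte markers summed to 52.7 to 75.0 CPM in DR GR-Con and 103 to 105 CPM in DR GR-KO, and 2 L6CT markers to 15.3 to 19.9 and 14.0 to 15.2 CPM. The sums of the other marker lists overlapped, and the part of these types in the calls was not tested. Smad3, which carries signals of TGF-β and activin receptors, was at 36.4 and 35.6 CPM in DR GR-Con and at 84.3 and 55.1 CPM in DR GR-KO (log2 difference 0.98 ± 0.22, adjusted p = 0.0026). Cbfa2t3, a transcriptional corepressor, was at 8.31 and 9.79 CPM and at 30.6 and 20.0 CPM (log2 difference 1.51 ± 0.24, adjusted p = 5.6e-07). Etv5 was the third named gene that was higher (1.20 ± 0.32, adjusted p = 0.022). Gda, a guanine deaminase, was at 184 and 144 CPM in DR GR-Con and at 87.5 and 93.5 CPM in DR GR-KO (log2 difference -0.83 ± 0.18, adjusted p = 0.0014). Itgb8 and Htr2a were lower by -1.23 and -1.18. Of these 6, the call of Cbfa2t3 alone passed with each library left out.

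Over both rearing conditions 14 genes were higher and 9 lower in GR-KO of 17771 (0.129%), while the quasi-likelihood test called 0, with 1409 at an unadjusted p under 0.05, and DESeq2 called 62. The likelihood ratio test called 4 without the NR GR-KO male library (0.0222%). Rprml was at 13.9 to 16.0 CPM in the 4 GR-Con libraries and at 18.1 to 21.8 CPM in the 4 GR-KO libraries, and Ndst3, an enzyme of heparan sulfate synthesis, at 30.3 to 32.3 CPM and at 36.5 to 43.4 CPM. The naming rule required that the groups not overlap, so this separation is no added support. The log2 differences were 0.40 and 0.38, and both genes lost their call when 1 library was left out. The interaction of genotype and rearing was called for 42 of 18131 genes (0.232%), and for 0 by the quasi-likelihood test, with 1305 at an unadjusted p under 0.05, while DESeq2 called 36. It was called for 34 genes when the NR GR-KO male library was left out (0.182%), of which 17 were among the 42. Col5a1 carried 1 of these calls: its rise in DR was from 14.0 and 12.2 CPM to 20.4 and 22.8 CPM in GR-Con and from 11.6 and 11.4 CPM to 32.7 and 32.0 CPM in GR-KO (interaction -0.81 ± 0.19, adjusted p = 0.017). Enpp2, which makes lysophosphatidic acid, was at 44.4 and 36.4 CPM in NR GR-Con, 66.5 and 74.0 CPM in DR GR-Con, and 42.9 to 45.4 CPM in the 4 GR-KO libraries (interaction 0.79 ± 0.20, adjusted p = 0.035). Both interactions did not pass without the NR GR-KO male library (adjusted p = 0.054 for Col5a1 and 0.11 for Enpp2). The genotype effect in NR differed between L4 and L2/3 for 45 of 18642 genes (0.241%), and for 0 by the quasi-likelihood test, with 820 at an unadjusted p under 0.05. With the NR GR-KO male library left out it was called for 57 (0.301%). Met, the hepatocyte growth factor receptor, was among them: it was at 2.79 and 2.11 CPM in NR GR-Con and 12.2 and 7.26 CPM in NR GR-KO in L4, and at 19.0 and 22.3 CPM and 44.6 and 28.3 CPM in L2/3, a difference of 1.18.

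Several of the genes above varied together among nuclei of the same library. Robo1 was taken to mark the range, after its values had been seen, so what follows is a description without tests. Nuclei were thinned to 10000 UMIs, and those with 2 or more Robo1 UMIs were called Robo1-high. They made up 13.8% and 11.5% of L4 nuclei in NR GR-Con, 36.7% and 25.7% in NR GR-KO, 48.5% and 21.6% in DR GR-Con, and 31.1% and 20.5% in DR GR-KO. The share was thus lowest in NR GR-Con and highest in the DR GR-Con male library, and it was higher in the male than in the female of every group. Nuclei with exactly 1 Robo1 UMI, next to the limit, made up 9.79% to 16.8%, fewer than either other class in each of the 8 libraries. Robo1-high is used as a range of this count, and whether it marks a type was not tested. Median UMIs per nucleus were 16862.5 to 33441 in Robo1-high nuclei and 15734.5 to 31888.5 in nuclei with 0 Robo1 UMIs.

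Robo1-high nuclei were higher than nuclei with 0 Robo1 UMIs in 8 of 8 libraries for Cdh13 (146 ± 92.2 against 25.4 ± 11 CPM), Gabrg3 (374 ± 173 against 98.8 ± 51.0 CPM), Gpc5, Sgcd, Spon1, Htr1f, Ntng1 and Met. Scn7a, a sodium channel that senses sodium rather than voltage, was at 23.5 ± 16.0 CPM in Robo1-high and 1.63 ± 1.14 CPM in the others. Hsd11b1 was at 26.7 ± 9.01 against 12 ± 5.89 CPM. Lower in 8 of 8 libraries were Scnn1a (4.69 ± 1.45 against 9.99 ± 1.66 CPM), Cux1, a transcription factor of upper layers (301 ± 65.7 against 555 ± 110 CPM), and Bdnf (12.8 ± 5.21 against 25.0 ± 6.91 CPM). Nr3c1 was lower too, at 141 ± 9.44 against 173 ± 9.42 CPM. The 5 L2/3 markers did not go one way. Beside Cdh13, Trpc6 was higher in 8 of 8 libraries (median log2 ratio 1.14 of CPM + 2). Chrm2 (107 ± 22.2 against 183 ± 29.4 CPM) and Calb1 (51.1 ± 15.1 against 68.4 ± 20.9 CPM) were lower in 8 of 8, and Otof was at 1.86 ± 0.918 against 1.84 ± 0.632 CPM. Of the 10 inhibitory neuron markers, Erbb4 was higher in 7 of 8 libraries (21.9 ± 14.7 against 15.6 ± 7.14 CPM), and Kcnmb2 and Adarb2 were higher in 6 of 8. The other 7 were higher in 2 to 5 of the 8 libraries, among them Gad1 at 1.83 ± 0.692 against 1.97 ± 0.540 CPM.

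**Figure D5:**
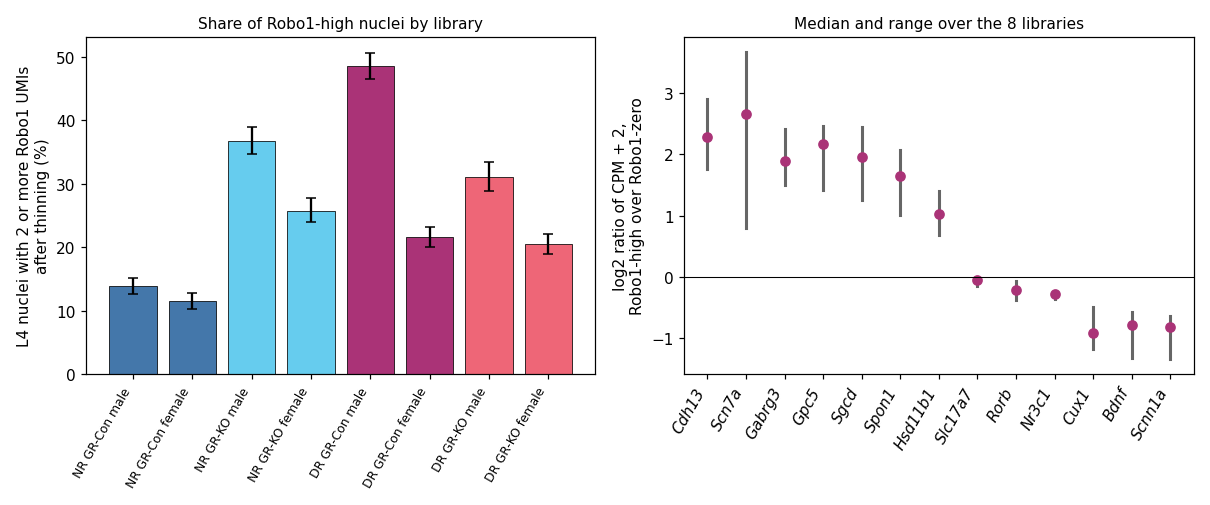
Left, bars give the share of L4 nuclei with 2 or more Robo1 UMIs after thinning to 10000 UMIs in each library, in percent, with 95% Wilson intervals of counting error. Right, points give the median and lines the range over the 8 libraries of the log2 ratio of CPM + 2 between Robo1-high nuclei and those with 0 Robo1 UMIs, from Cdh13, Scn7a and Gabrg3 above 0 in every library to Cux1, Bdnf and Scnn1a below 0 in every library.

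The rearing genes could be read within each end of this range. Nrp1 was at 11.5 ± 4.72 CPM in NR and 38.2 ± 8.77 CPM in DR in nuclei with 0 Robo1 UMIs, and at 9.23 ± 0.915 and 14.2 ± 5.22 CPM in Robo1-high nuclei. The separation of Nrp1 by rearing was thus complete in the first and overlapping in the second. Hsd11b1 had a higher mean in DR at both ends, with overlapping libraries at each, at 20.0 ± 4.71 and 33.5 ± 6.76 CPM in Robo1-high nuclei and at 7.71 ± 1.28 and 16.2 ± 5.54 CPM in the others. Hunk was lower in DR at both ends, at 103 ± 24.2 and 43.1 ± 22.2 CPM in Robo1-high nuclei and at 114 ± 29.9 and 48.2 ± 23.2 CPM in the others. Adamtsl1 was at 25.9 ± 8.09 and 78.0 ± 20.3 CPM and at 25.5 ± 6.25 and 64.3 ± 17.8 CPM. On the CPM + 2 scale, 48 of the genes tested, Robo1 not counted, were at least 1.5 times higher in Robo1-high nuclei in all 8 libraries. They included 8 of the 42 genes higher in NR GR-KO (19%, against 0.272% of the genes tested). Among the 411 genes higher in DR in GR-Con they included 25 (6.08%, against 0.272%). Among the 871 genes higher in DR over both genotypes they included 9 (1.03%, against 0.27%). In GR-KO they included 2 of the 468 genes higher in DR (0.427%, against 0.275%) and 2 of the 487 lower (0.411%). For genotype in DR they included 0 of the 135 higher and 2 of the 67 lower (2.99%, against 0.277%). Robo1 was chosen after its levels in these comparisons were seen, so these counts are a description. The 48 genes had to reach 2 CPM, a floor that the genes tested did not have. The shares set beside each other are therefore not on an equal footing.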

How the data were processed

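Nuclei from microdissected V1 of 8 mice at P21 were sorted as GFP-negative, and RNA was counted with 10x 3′ chemistry. Per the labels and the study's methods, the authors aligned reads with Cell Ranger 8.0.1 to mm10 with vector sequences added, removed low-quality nuclei and doublets, and annotated types in Seurat 5.3.0. The deposited values are UMI counts per gene and nucleus, not normalized. The library names in the annotation give group and sex but no replicate number. All mice were collected under red light in the same hours, which followed lights-off in the cycle of the NR mice. DR mice had no such cycle.

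Counts of L4 nuclei were summed per library here. The main test was the likelihood ratio test of edgeR 4.0.16 (R 4.3.3) with TMM factors, filterByExpr and a Benjamini-Hochberg threshold of 0.05, as the study's methods use edgeR. The fits within 1 genotype or rearing condition used their own 4 libraries, and standard errors are the log2 difference divided by the root of the likelihood ratio statistic. Type differences were tested on L4 and L2/3 (or L5IT) sums of the same libraries. Alternatives were the quasi-likelihood F-test, DESeq2 1.42.0, other scaling and filters, sex as a term, a joint fit, nuclei without vector UMIs, equal numbers of nuclei and leaving out each library. Shares and medians were compared by exact two-sided permutation. With 2 mice per group, intervals on nuclei cover counting error only. The fits were tested on simulated data.

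Genes were named by a rule: the largest changes among called genes whose mean log2 CPM reached 4 and whose groups did not overlap, leaving out sex chromosomes and unnamed genes, up to 10 per direction for rearing and for genotype in NR, 5 for type differences and 3 otherwise. Markers, vector genes, and the members of 18 lists (378 genes) with the smallest p, up to 4 for rearing and 2 for genotype, were added. Genes named outside this rule, such as those of the Robo1-high range, were chosen after their values were seen. Some receptor genes are not reported here and were left out of the lists. The members and lists were chosen with earlier results of these data known. Gene positions are from GENCODE (GRCm38) and promoters from RefSeq.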

Additional observations from a re-analysis of the deposited data

Results flagged for a closer look

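Among groups of 4 libraries, 22 of 224 had 1 library far from the other 3, where chance flags about 1 in 20. In the NR group the NR GR-KO male library was the highest for Gap43 (86.6 CPM, others 35.6 to 43.9), Egr3 (17.4, others 3.45 to 5.08), Egr2 (5.80, others 0.210 to 0.432), Fos (31.2, others 1.34 to 3.55), Fosb (8.58, others 0.298 to 1.11) and Junb (127, others 9.02 to 28.4). It was the highest too for Arc (64.2 CPM, others 1.95 to 5.68), Nr4a1 (94.5, others 47.1 to 54.3), Nr4a3 (13.5, others 2.07 to 2.62) and Mbp (59.4, others 30.8 to 35.5). It was the lowest for Mfap3l (28.9 CPM, others 43.1 to 45.4), Kcns2 (4.94, others 6.96 to 7.38) and Npas2 (135, others 142 to 143). The other NR libraries that stood apart were NR GR-KO female for Kcnt1 (20.7 CPM, others 23.2 to 23.3) and NR GR-Con female for Pvalb (0.723, others 1.21 to 1.26).

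In the DR group the DR GR-Con female library was the highest for Adamtsl1 (94.0 CPM, others 59.6 to 62.6) and Scg2 (11.2, others 5.26 to 6.10). The DR GR-Con male library was the lowest for Scnn1a (4.42 CPM, others 8.83 to 9.34) and Fos (1.33, others 3.25 to 3.48) and the highest for Nr4a3 (7.41, others 6.17 to 6.33). The DR GR-KO male library was the lowest for Kcnj3 (428 CPM, others 560 to 579) and Inpp5d (1.38, others 2.73 to 2.86). Without the DR GR-Con female value Adamtsl1 would still lie above every NR library, an outcome that the naming rule had fixed in advance.

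Tests of a difference between effects called 42 genes for the interaction of genotype and rearing, 1620 for the rearing effect in L4 against L2/3, 369 for it against L5IT, and 45 for the NR genotype effect against L2/3. The named interactions, as the NR genotype difference minus the DR one on the log2 scale, were 2.07 for Erbb4, 0.79 for Enpp2, 0.79 for Gprin3, -0.81 for Col5a1 and -0.80 for Sema7a, and each lost its call when 1 library was left out. Against L2/3 the rearing differences were 1.60 for Trpc6, 1.45 for Mir670hg, 1.45 for Col26a1, 1.43 for Sema3a, 1.22 for Fstl5, -3.38 for Rmst, -1.61 for St6galnac5, -1.55 for Sgcd, -1.41 for Maml2 and -1.15 for Ano4. Against L5IT they were 1.77 for Hsd11b1, 1.62 for Grik1, 1.61 for Col12a1, 1.29 for Adarb2, 1.22 for Pth2r, -1.87 for Ntng1, -1.58 for Nfia, -1.10 for Prkd1, -1.03 for Mtss1 and -1.0 for Dscaml1. For the NR genotype effect against L2/3 they were 1.41 for Syt17, 1.19 for Spon1, 1.18 for Met, 0.96 for Nrp2, 0.76 for Gbe1, -1.36 for Grik1, -1.22 for Grik4, -1.10 for Glis3, -1.01 for Hs3st4 and -0.61 for Glp2r.

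Vector RNA lies outside the comparisons of genes. A Cre UMI was found in 15.6%, 3.76%, 2.18% and 2.25% of L4 nuclei of the NR GR-KO male, NR GR-KO female, DR GR-KO male and DR GR-KO female libraries, and in 0 in GR-Con.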

How the results depend on the processing

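With 2 mice per group, few degrees of freedom limit every comparison within 1 genotype or rearing condition. No paired analysis was possible because the replicate numbers in the labels could not be matched to the libraries, whose names give only group and sex. Sex, which does not mark a pair of animals in the sources used here, was fitted as a term. By the quasi-likelihood F-test the counts of calls became 8 for rearing in GR-Con, 218 for rearing in GR-KO, 941 for L4 against L2/3 and 49 for L4 against L5IT. It called 0 genes for genotype in NR, genotype in DR, genotype over both rearings, the interaction, and the NR genotype effect against L2/3, where 865, 1816, 1409, 1305 and 820 genes had an unadjusted p under 0.05 (DESeq2 called 34, 279, 62 and 36 in the first 4; the last was not run with it). With sex as a term the counts were 1696 for rearing in GR-KO, 249 for genotype in NR, 634 for genotype in DR, 67 for genotype over both rearings and 203 for the interaction. With all 8 libraries in 1 fit they were 8 for genotype in NR and 108 for genotype in DR. With no filter on low counts the interaction had 26. The cause of these changes was not tested.

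Leaving out each library gave 838 to 2160 calls for rearing over both genotypes, 183 to 848 in GR-Con and 161 to 1583 in GR-KO. It gave 12 to 482 for genotype in NR, 16 to 881 in DR and 4 to 260 over both, 6 to 256 for the interaction, 939 to 2065 for L4 against L2/3, 187 to 955 against L5IT and 14 to 839 for the NR genotype effect against L2/3. The highest counts came without the NR GR-KO male library for rearing in GR-KO and against L5IT, without the NR GR-KO female for genotype in NR, genotype over both rearings and the NR genotype effect against L2/3, and without the DR GR-Con female for genotype in DR and the interaction. Where an arm was left with 1 library, it was assumed to vary like the others. The share of L4 nuclei differed by -5.28 to -2.10 points for rearing and by -2.80 to 0.653 points for genotype, and the latter turned positive without the NR GR-Con female (0.152), the NR GR-KO male (0.378) or the DR GR-KO male (0.653). Median UMIs differed by -6902 to -1633 for rearing and by 342 to 5857 for genotype. Over all alternatives of the 86 named genes, 916 values kept their side of the threshold, 187 did not pass it and 0 changed sign, and 34 of the 86 kept their call throughout.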

Other observations

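Of 20 layer identity transcription factors tested for rearing in L4, 2 rose and 1 fell in DR, with a median log2 difference of -0.08. Of the 10 inhibitory neuron markers, 1 rose and 4 fell, with a median of -0.43. For 9 oligodendrocyte and OPC markers the counts were 1 and 3, for 6 astrocyte markers 1 and 0, and for 7 microglia and endothelial markers 0 and 1. Of the 3 L5IT markers 2 rose, with a median of 0.79, and of the 5 L2/3 markers 1 rose and 1 fell. Each list can be set against the 9.91% of all genes called in that comparison.

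Of 17 circadian clock genes, 4 rose and 2 fell in DR when the NR GR-KO male library was left out, against 4.94% of all genes called higher and 4.85% lower in that fit. In the comparison of L4 with L2/3, 2 clock genes had a more positive rearing effect in L4 and 3 a more negative one, against 4.4% and 4.09% of all genes.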
